A study of Mus musculus with 4 samples.

Results

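The 9 genes described here encode receptors known from natural killer (NK) cells, and their chromatin was measured in CD4 T cells of the mouse. They are Klrg1, Klrd1, Klrc1, Klrk1, Klrb1c, Klra1, Klra8, Ncr1 and Crtam. The assay was ATAC-seq, whose transposase cuts and tags accessible DNA, and each library came with its own list of peaks. Peaks of the 4 libraries sharing 1 bp or more were joined to regions. A region belongs to a gene when that gene has the nearest protein-coding interval (RefSeq, GRCm38) within 100 kb of the region's midpoint. By this rule the 9 genes held 32 of the 97394 regions, and each gene had at least 1.

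The cells were SMARTA CD4 T cells, which carry a transgenic receptor for the GP61 peptide. Naive donor cells with TOX (WT) or lacking it (KO) went into hosts that bore B16-GP61 melanoma and had received cytoxan, a lymphocyte-depleting drug. On day 11 they were recovered by sorting, from the lymph node that drains the tumor. WT libraries (WT-1 and WT-2) held Ly5.1+ Ly5.2+ cells with high PD1, LAG3 and CD39. KO libraries (KO-1 and KO-2) held Ly5.1+ Ly5.2- cells with low levels of the same 3 proteins. Genotype, sort gate and congenic marker changed together, so their parts in any difference cannot be told apart. The labels give neither the deleted part of Tox nor whether the 2 libraries of a genotype came from separate animals. The genotype was not checked with peaks here. In such bulk libraries, fewer cells with an open region and less accessibility per cell cannot be told apart either. With 2 libraries against 2, an exact two-sided permutation test cannot give a p below 0.333, so differences are given as values and counts without a p.

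NK receptors let a lymphocyte read the surface of other cells, and many are also gained by T cells after activation. Inhibitory members carry motifs that recruit phosphatases, while activating members signal through adaptors such as DAP10 and DAP12. Most of the genes lie in the NK gene complex of mouse chromosome 6, a cluster of C-type lectin-like receptors. On CD4 T cells, several of these receptors are known as marks of effector or cytotoxic cells.

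The RefSeq promoter table (GRCm38.p6, 250 bases before to 50 after a start site) held windows for 6 of the 9 genes: Klrb1c, Klrk1, Klrc1, Klra8, Klra1 and Ncr1. Klrg1, Klrd1 and Crtam had no entry. Peaks overlapped 2 of these 6 promoters, and neither of them in every library. Over all 17492 protein-coding genes with a window, 48.5% had a peak on it in every library and 44.5% in no library. The 3 windows shown here are 2 on which a peak lay and 1, of an NK-defining gene, on which none did. That of Klra1 was open, meaning that a peak was called on it, in WT-1 and WT-2 but not in KO-1 or KO-2. The word has this meaning below, and a missing peak does not show closed chromatin. That of Klrb1c was open in KO-2 alone, and that of Ncr1 in no library. Capitals mark the RUNX motif TGTGGT and the ETS motif GGAAGT on either strand. T-box, RUNX and ETS factors are known regulators of NK receptor genes.

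Klra1 promoter, chr6:130386825-130387124, minus strand: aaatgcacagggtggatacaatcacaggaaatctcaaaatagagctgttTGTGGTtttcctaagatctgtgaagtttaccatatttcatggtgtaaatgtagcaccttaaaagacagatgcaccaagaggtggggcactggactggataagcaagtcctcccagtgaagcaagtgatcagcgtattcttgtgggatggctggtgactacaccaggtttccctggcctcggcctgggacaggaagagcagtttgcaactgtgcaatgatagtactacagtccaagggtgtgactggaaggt

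Klrb1c promoter, chr6:128788592-128788891, minus strand: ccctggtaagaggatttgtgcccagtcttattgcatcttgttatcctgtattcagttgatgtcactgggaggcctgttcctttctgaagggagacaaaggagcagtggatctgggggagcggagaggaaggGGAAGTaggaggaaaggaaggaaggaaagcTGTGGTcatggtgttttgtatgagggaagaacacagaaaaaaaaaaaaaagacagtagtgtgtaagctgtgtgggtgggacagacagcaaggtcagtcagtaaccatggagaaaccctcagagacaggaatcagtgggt

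Ncr1 promoter, chr7:4337465-4337764, plus strand: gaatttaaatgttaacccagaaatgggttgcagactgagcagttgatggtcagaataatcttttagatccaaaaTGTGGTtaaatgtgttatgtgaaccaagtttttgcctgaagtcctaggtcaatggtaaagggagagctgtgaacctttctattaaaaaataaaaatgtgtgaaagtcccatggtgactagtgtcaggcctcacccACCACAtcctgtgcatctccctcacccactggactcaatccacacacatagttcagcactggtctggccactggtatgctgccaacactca

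The RUNX letters stood in the windows of 5 of the 6 genes, Klra8 being the exception, against 17.2% of all protein-coding genes with a window. Relative to the start site they began at −201 in Klra1, −89 in Klrb1c, −129 in Klrk1 and −87 in Klrc1. The Ncr1 window shown held 2 matches, at −176 and −41. The ETS letters stood in Klrb1c alone, at −119, against 27.7% of genes. No window of the 6 genes held the T-box motif AGGTGTGA, which 1.35% of genes had. The AP-1 motif TGANTCA and the TCF motif CTTTGA each stood in Klrk1 alone, where they overlapped, against 8.12% and 16.7% of genes. The NFAT motif GGAAAA stood in Klra1 alone, sharing 1 base with its RUNX letters, against 25.3% of genes. Such matches describe the letters of these windows and show no binding.

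Across the 9 genes, the WT lists had peaks in 26 regions (WT-1) and 24 (WT-2), and the KO lists in 9 (KO-1) and 19 (KO-2). The means were 25 ± 1.41 for WT and 14 ± 7.07 for KO (SD, n = 2 each). Of the whole lists, that of KO-1 was the shortest (43078 peaks) and that of KO-2 the longest (61773 peaks). For single libraries, the share of all regions with a peak was not compared, so the KO mean is not read as a loss. Both WT libraries lay above both KO libraries, but KO-1 and KO-2 lay further apart from each other than KO-2 did from either WT library. Both WT libraries had a peak in 22 of the 32 regions (68.8%), against 42.9% of all regions. Both KO libraries had one in 8 (25%), against 31.7%. These 8 were the same regions that were open in every library, a pattern found in 27.6% of all regions.

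Of the 32 regions, 6 (18.8%) were WT-only, that is, called in WT-1 and WT-2 and absent from both KO lists, against 8.80% of all regions. Klrg1 had 3 of them, and Klrd1, Klrb1c and Klra1 had 1 each. None was KO-only, the reverse pattern, against 1.78% of all regions. Another 7 (21.9%) were open in every library but KO-1, a pattern found in 5.69% of all regions. These 7 lay at 6 genes, Klrg1, Klrc1, Klrk1, Klra8 and Crtam with 1 each and Klrb1c with 2. Peaks in KO-2 alone made up 4 regions (12.5%), against 18.8% of all. In 12 regions (37.5%) peaks came from WT libraries alone, from 1 or both of them, against 30.8%. KO-1 had the shortest list of the 4, so regions without a peak in KO-1 are not read as a trait of these genes.

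**Figure D1:**
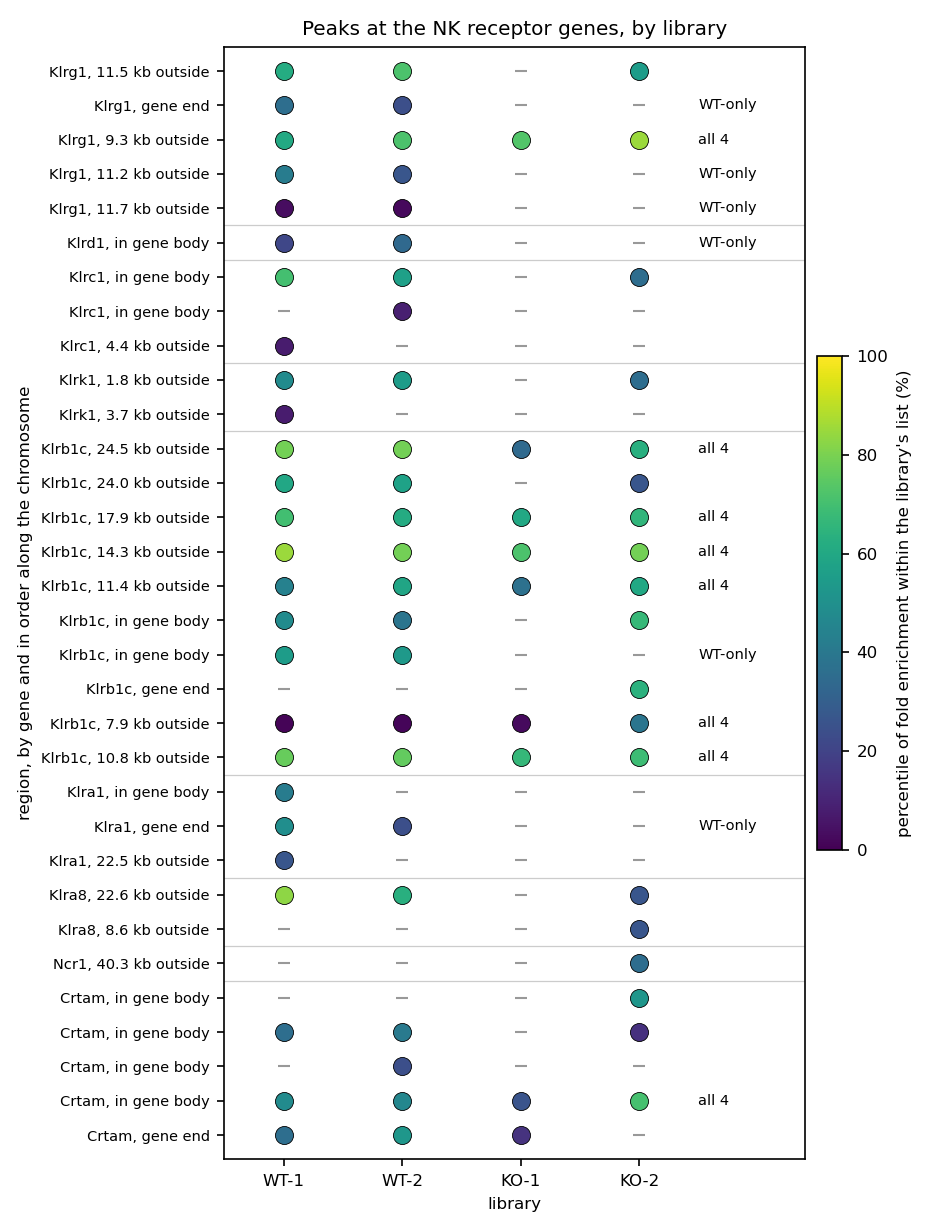
Each row is 1 of the 32 regions at the 9 genes and each column a library; a filled circle is a peak, coloured by the percentile of its fold enrichment within that library's list, and a dash is no peak. The WT columns hold 26 and 24 peaks, KO-1 holds 9 and KO-2 holds 19.

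By gene, both WT libraries had more open regions than both KO libraries at 4 of the 9 genes: Klrg1, Klrd1, Klrc1 and Klra1. The reverse was seen at none. Over all 16331 protein-coding genes with a region, 17.8% had the first pattern and 4.30% the reverse. At Klrk1, Klrb1c, Klra8, Ncr1 and Crtam the genotypes overlapped.

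**Figure D2:**
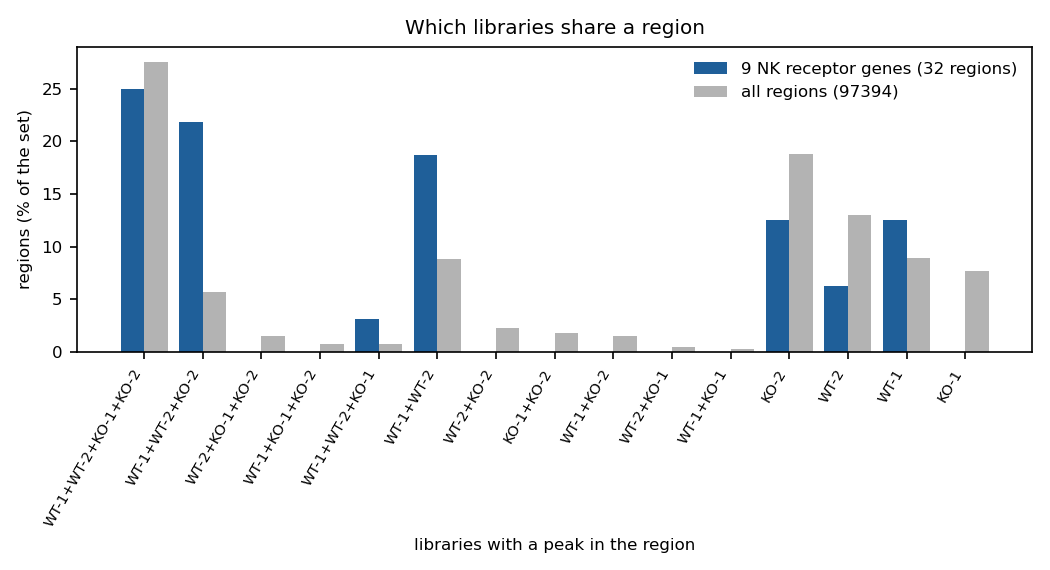
Bars give the percent of regions with a peak in exactly the libraries named on the horizontal axis, in blue for the 32 regions at the NK receptor genes and in grey for all 97394 regions. The blue bar stands farthest above the grey one for the WT pair with KO-2 (21.9% against 5.69%), and next farthest for the WT pair (18.8% against 8.80%).

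Klrg1 encodes an inhibitory receptor that binds cadherins and marks terminally differentiated effector T and NK cells (chr6:122270596-122282833). It had 5 regions, all open in WT-1 and in WT-2, against 1 open in KO-1 and 2 in KO-2. The WT-only region at the gene's lower end, chr6:122270269-122270454, reached a fold enrichment of 3.36 (WT-1) and 2.83 (WT-2). Fold enrichment is the authors' own value for a peak over the peak caller's background in the same library. These peaks stood at percentiles 35.6 and 23.9 of their lists by fold enrichment, below the middle. The remaining WT-only regions of Klrg1 lay above the gene's upper end, over the transcribed pseudogene Gm6637. At chr6:122293823-122294243, with its midpoint 11200 bp from the gene, WT-1 gave a fold of 3.67 and WT-2 one of 2.88. At chr6:122294450-122294623 it was 2.48 and 2.27, close to the bottom of either list (percentiles 3.47 and 1.97).

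The strongest peaks at Klrg1 were not WT-only. At chr6:122291759-122292492, 9292 bp above the gene, every library had a peak, with fold enrichments of 4.91 and 6.08 in WT-1 and WT-2 and 5.77 and 10.9 in KO-1 and KO-2. Ranked among the 26867 regions shared by the 4 libraries, where all lists have equal length, the KO peaks stood at percentiles 56.8 and 65.3 and the WT peaks at 30.5 and 42.3. Both KO ranks were thus above both WT ranks here, next to 2 regions that were WT-only. The region at chr6:122258912-122259370, 11455 bp below the gene, had folds of 5.04 and 6.13 in the WT libraries and 4.66 in KO-2, and no peak in KO-1.

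**Figure D3:**
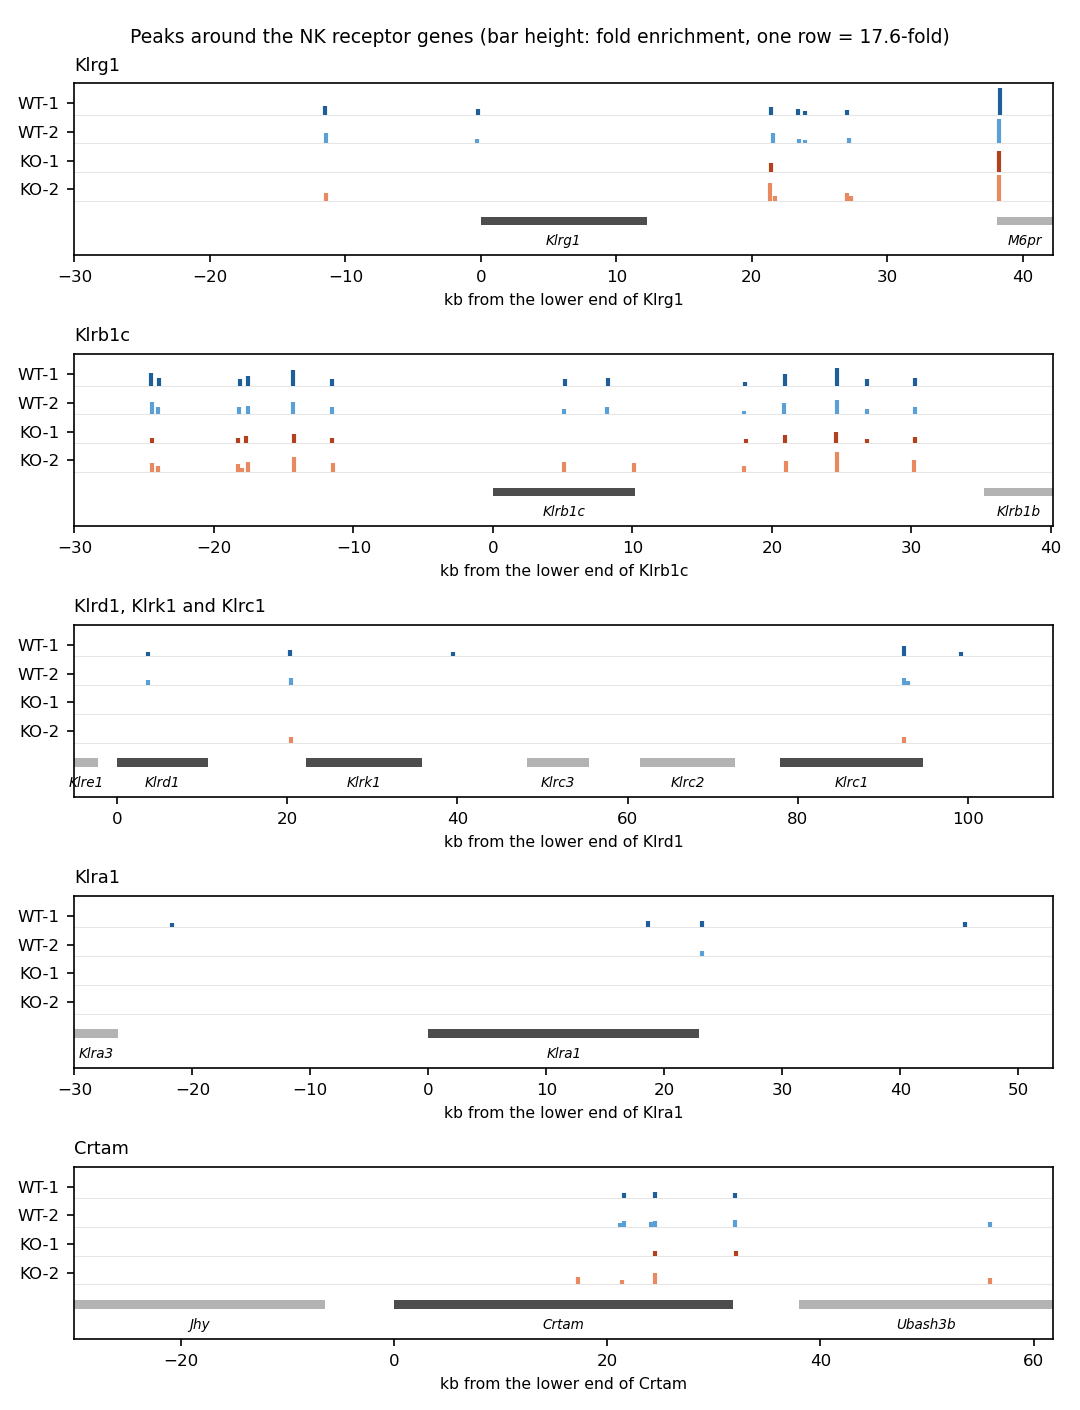
Peaks of each library around Klrg1, Klrb1c, Klrd1 with Klrk1 and Klrc1, Klra1 and Crtam, by distance in kb from a gene's lower end; the height of a bar is the fold enrichment of the peak, dark boxes are the genes described and light boxes their protein-coding neighbours, whose own peaks are drawn too. The Klrg1 panel shows WT peaks without KO peaks at the gene's lower end and beyond its upper end, beside a region open in all 4 libraries. The Klra1 panel shows WT peaks alone, with 1 of WT-1 and 1 of WT-2 at the gene's upper end.

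Klrd1, Klrc1 and Klrk1 lie close together on chromosome 6. Klrd1 encodes CD94, which pairs with NKG2 proteins, and Klrc1 encodes NKG2A, its inhibitory partner, which binds the class Ib molecule Qa-1. Klrd1 (chr6:129588092-129598775) had a single region, WT-only and inside the gene body at chr6:129591508-129591860. Its fold enrichment was 2.90 in WT-1 and 3.11 in WT-2, at percentiles 21.4 and 33.8. No other region was assigned to Klrd1.

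Klrc1 (chr6:129666015-129682852) had 3 regions, of which each WT library had a peak in 2, KO-1 in none and KO-2 in 1. The main one, at chr6:129680226-129680824 in the gene body, had folds of 6.11 in WT-1, 4.38 in WT-2 and 3.49 in KO-2. It stood at percentiles 70.2, 56.6 and 35.5 of these lists, which differ in length, and its midpoint lay 1552 bp before the start site of the promoter table. The other regions were weak peaks of WT-2 alone (fold 2.54) and of WT-1 alone (fold 2.60).

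Klrk1 encodes NKG2D, an activating receptor for stress-induced ligands (chr6:129610323-129623903). A region 1807 bp beyond the gene's downstream end, chr6:129608231-129608802, had folds of 3.97 in WT-1, 4.24 in WT-2 and 3.49 in KO-2 and no peak in KO-1. The remaining region was a peak of WT-1 alone (fold 2.60). Klrd1, Klrc1 and Klrk1 thus had no peak in KO-1 at all, while KO-2 shared the strongest region of Klrc1 and of Klrk1 with both WT libraries.

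Klrb1c encodes NK1.1, an activating receptor of NK cells and NKT cells (chr6:128778485-128788641), and had the most regions of the 9 genes. It had 10 regions, with peaks in 9 (WT-1) and 9 (WT-2), and in 6 (KO-1) and 9 (KO-2) of them. Every library had a peak in 6 of the regions, all outside the gene, from 7861 bp to 24461 bp away. The strongest of them by −log10 q, chr6:128763733-128764645, had fold enrichments of 9.73 and 7.52 in WT-1 and WT-2, against 5.58 and 8.81 in KO-1 and KO-2. On the other side of the gene, chr6:128798857-128799946, over the long noncoding RNA gene Gm34755, gave 7.36, 6.90, 4.92 and 6.43 in the same order. At chr6:128753819-128754229 the values were 7.87, 7.51, 3.11 and 5.59. Ranked among shared regions, this last region stood at percentiles 58.1 and 54.6 in WT against 12.6 and 24.5 in KO, so both WT ranks were higher. The reverse held at chr6:128796234-128796770, the weakest of the 6, with folds of 2.17 and 2.18 in WT and 2.41 and 3.61 in KO.

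Inside Klrb1c the libraries differed. A region in the gene body, chr6:128786491-128786905, was WT-only, with folds of 4.43 (WT-1) and 4.17 (WT-2) at percentiles 54.8 and 53.8, the highest among the 6 WT-only regions. About 2 kb further on, a region on the start site, chr6:128788461-128788710, had a peak in KO-2 alone, with a fold of 5.64 at percentile 63.7. This region covered 119 bases of the promoter printed above, from its start site side, and ended short of the RUNX and ETS letters. The third region in the gene, chr6:128783424-128783862, was open in both WT libraries (folds 3.97 and 3.28) and in KO-2 (fold 6.16). No peak of KO-1 lay inside the gene.

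By the 4 shares of its regions with a peak, the 3 genes closest to Klrb1c among 1634 with a like number of regions were Slc16a1, Dot1l and Mob3b. Slc16a1 encodes a lactate transporter and Dot1l a histone methyltransferase. Slc16a1 had peaks in 8, 9, 6 and 9 of its 10 regions in the library order used above. The measure was the Euclidean distance over 4 libraries, in percentage points (10.0 for Slc16a1, 10.9 for Dot1l and 11.7 for Mob3b).

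The Klra genes encode the Ly49 receptors. Klra1 encodes Ly49A, an inhibitory receptor for MHC class I, and Klra8 encodes Ly49H, an activating receptor known for recognising a cytomegalovirus protein. Klra1 (chr6:130363918-130386874) had 3 regions, all open in WT-1, 1 in WT-2 and none in a KO library. The one open in both WT libraries, chr6:130386901-130387243, was WT-only and covered 224 bases of the Klra1 promoter printed above, its RUNX letters included. WT-1 had a fold of 4.04 there and WT-2 one of 2.83, at percentiles 49.1 and 23.9. The peaks of WT-1 alone had folds of 3.67 in the gene body and 3.06 at 22510 bp upstream, on the edge of the pseudogene Gm6584.

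Klra8 (chr6:130115226-130129898) had no peak in the gene or on its promoter in any library. Its stronger region, chr6:130092268-130092979, lies 22603 bp from the gene on the edge of the pseudogene Klra11-ps. It had folds of 9.06 in WT-1, 4.95 in WT-2 and 3.26 in KO-2, and no peak in KO-1. Its other region, chr6:130138394-130138552, had a peak in KO-2 alone, with a fold of 3.26, so Klra8 had 1 open region in either WT library, 0 in KO-1 and 2 in KO-2. Some Ly49 genes are near copies of each other: the Klra8 promoter shared 86.0% of aligned bases with that of Klra4 and 79.4% with that of Klra17. Its identity was 47.3% with that of Klra1, within the 46.1% to 53.8% it had with the promoters of Klrb1c, Klrc1, Klrk1 and Ncr1. The Klra1 promoter shared at most 51.8% with any other Ly49 promoter compared. The treatment of reads that map to several places was not stated in the labels, so peaks at Klra8 are uncertain. Sequence outside the promoters was not compared.

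Ncr1 encodes NKp46, an activating receptor of NK cells and other innate lymphocytes (chr7:4337715-4345184). Its single region, chr7:4297320-4297478, lay 40316 bp upstream and had a peak in KO-2 alone, with a fold of 3.49. No other region was assigned to Ncr1, so none lay in the gene.

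Crtam encodes an adhesion receptor of activated cytotoxic T cells and NK cells that binds Cadm1 (chr9:40972798-41004628). Its regions lay inside the gene (4) or at its upper end (1). Peaks were found in 3 (WT-1) and 4 (WT-2), and in 2 (KO-1) and 3 (KO-2) of the 5 regions, so the numbers of the genotypes overlapped. The region open in every library, chr9:40997109-40997425, had folds of 3.97 and 3.67 in WT-1 and WT-2 and of 2.95 and 6.76 in KO-1 and KO-2. Ranked among shared regions it stood at percentiles 17.8 and 13.3 in WT and 8.61 and 35.5 in KO, so the genotypes overlapped there too. At the upper end, chr9:41004542-41004975 had folds of 3.36 and 4.10 in the WT libraries and 2.78 in KO-1, and no peak in KO-2. It was the only one of the 32 regions open in every library but KO-2. The region chr9:40993894-40994550 had folds of 3.36, 3.39 and 3.03 in WT-1, WT-2 and KO-2. The remaining regions were chr9:40989957-40990173, with a peak in KO-2 alone (fold 4.43), and chr9:40996768-40996941, with a peak in WT-2 alone (fold 2.83).

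As over all regions, the WT-only regions were narrower and weaker than the shared ones, so this is not a trait of these genes. The 6 WT-only regions spanned 174 to 421 bp (median 348 bp, against 373 bp over all WT-only regions). Their median percentile was 38.6 in WT-1 and 25.3 in WT-2, against 42.5 and 46.2 over all WT-only regions. The 8 shared regions spanned 317 to 1182 bp (median 635.5 bp, against 851 bp for all shared regions). Their median percentiles were 65.1 and 66.4 in WT-1 and WT-2 and 48.3 and 66.9 in KO-1 and KO-2, against 74.1, 76.0, 68.3 and 77.9 over all shared regions. Among these 8, both WT ranks were above both KO ranks in 2 (24.0% of all shared regions) and both KO ranks above both WT ranks in 2 (22.0%). At these genes 2 of 8 in either direction is close to the share over all shared regions.

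Of the 32 regions, 10 lay in gene bodies (31.2%), 4 within 1 kb of a gene end (12.5%) and 18 outside (56.2%). For all regions with a gene these shares were 51.3%, 16.7% and 32.0%. The NK receptor genes span from 7470 bp (Ncr1) to 31831 bp (Crtam). Their lengths were not compared with those of other genes, and no match for gene length was made.

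The counts were repeated on stronger peaks, which leaves fewer regions. At a −log10 q of at least 10 and among the 20000 strongest peaks, the WT and KO counts also lay closer in proportion. With peaks of −log10 q of at least 5, the 4 lists had peaks in 17 (WT-1) and 16 (WT-2), and in 5 (KO-1) and 12 (KO-2) regions. At a −log10 q of at least 10 these numbers were 11, 9, 4 and 10, and KO-2 lay between the WT libraries. With every list cut to the length of the shortest, 43078 peaks, they were 20, 17, 9 and 12. Among the 20000 strongest peaks of each list they were 6, 6, 4 and 5. Shares of all regions for single libraries were not compared in these settings either. Which regions were WT-only also changed with the peaks used: at a −log10 q of at least 5 there were again 6, of 22 regions and against 13.5% of all, but 2 at Klrb1c, 1 each at Klrg1, Klrc1, Klrk1 and Klra8, and 0 at Klrd1 and Klra1. Among the 20000 strongest peaks 1 of 7 was WT-only, at Klrb1c, against 8.96% of all regions.

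**Figure D4:**
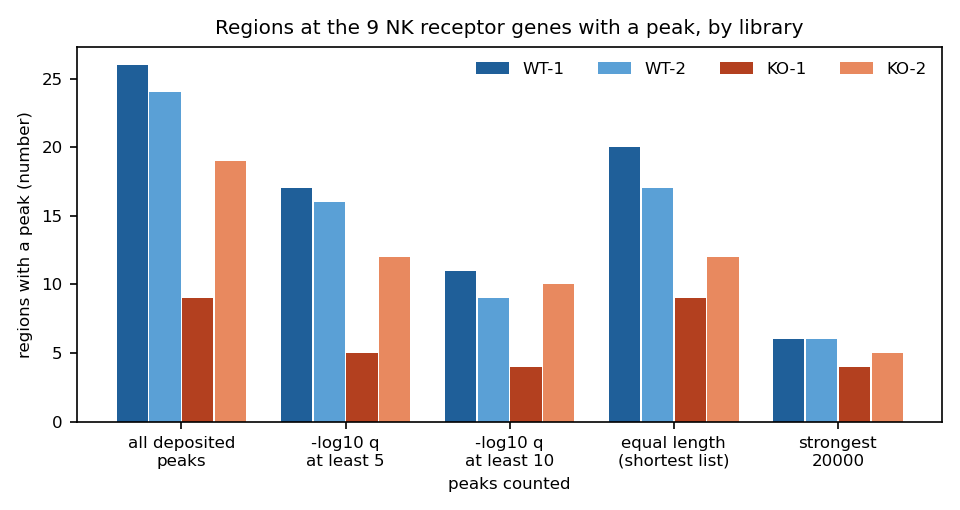
Number of regions at the 9 genes with a peak in each library (bars, counts from 0), for all deposited peaks and for lists limited by strength or length. With all peaks the libraries have 26, 24, 9 and 19 regions; among the 20000 strongest of each list they have 6, 6, 4 and 5.

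Neighbours of these genes in the NK gene complex were counted in the same way. A list of 21 other receptors of the complex had 57 regions at 17 genes, with peaks in 37 (WT-1) and 38 (WT-2), and in 15 (KO-1) and 24 (KO-2) of them. Of the 57, 9 (15.8%) were WT-only and 1 (1.75%) KO-only, beside 8.80% and 1.78% of all regions. Clec2d, whose product is a ligand of an NKR-P1 receptor, had 3 WT-only and 1 KO-only region of 12. Klre1, an NK receptor gene next to Klrd1, had 2 WT-only regions of 7, and Klra2 and Klra3 were among the 4 genes with 1 each. Of the 20 of these genes with a promoter window, 18 had no peak on it in any library and 2 had one in every library.

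Genes that act with these receptors were counted by role. Adaptor and signalling genes had 16 WT-only (20.5%) and 1 KO-only (1.28%) of 78 regions, beside 8.80% and 1.78% of all regions. Of the 16, 9 lay at Plcg2, 4 at Inpp5d, 2 at Vav1 and 1 at Tyrobp, which encodes DAP12. The KO-only region lay at Cd247, which encodes the CD3 zeta chain. Plcg2, a phospholipase, also acts in B cell receptor signalling. Transcription factor genes of NK cells had 24 WT-only (19.5%) and 2 KO-only (1.63%) of 123 regions. Of the 24, 10 lay at Ets1, 8 at Zeb2, 3 at Id2 and 2 at Eomes. Id2 also had the 2 KO-only regions. Ligand genes had 2 WT-only (3.64%) and 1 KO-only (1.82%) of 55 regions. Both WT-only regions lay at H60b, an NKG2D ligand, and the KO-only one at Cdh4. Zfp683 of the factor list was not matched in the RefSeq table.

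Markers of other cell types were counted in the same regions, since NK receptors are not particular to T cells. All 8 T cell marker genes had regions, 79 in all, with peaks in 49 (WT-1) and 49 (WT-2), and in 47 (KO-1) and 63 (KO-2). Of the 79, 5 (6.33%) were WT-only and 6 (7.59%) KO-only, beside 8.80% and 1.78% of all regions. Cd4 had a peak in every library, in 1, 2, 1 and 3 of its 3 regions in the same order. Of 8 further NK cell markers, 6 had regions and Gzma and Fcgr3 had none. Their 36 regions were open 20, 25, 15 and 24 times in the same order. Of the 36, 3 (8.33%) were WT-only, close to the 8.80% of all regions, and 0 KO-only. Eomes, Fcer1g and Tyrobp are also in the lists above. The KO-2 count lay between those of the WT libraries. Of the CD8 genes, Cd8a had 1 region, with a peak in WT-1 alone, and Cd8b1 had 5 regions, open 1, 1, 1 and 5 times. The 8 B cell marker genes had 105 regions, open 76, 88, 7 and 15 times. Of the 105, 52 (49.5%) were WT-only and 1 (0.952%) KO-only, at Pax5, and neither KO list had a peak at Ms4a1. Of 8 myeloid markers 7 had regions and Lyz2 had none. Their 68 regions were open 51, 53, 17 and 30 times, with 25 (36.8%) WT-only and 1 (1.47%) KO-only, at Cebpb. B cell and myeloid markers thus had more open regions in both WT lists than in both KO lists, as the NK receptor genes did. Their WT-only shares, 49.5% and 36.8%, were above the 18.8% of the receptor genes. The part of these markers in the result for the receptor genes was not tested.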

How the data were processed

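ATAC-seq peak lists of 4 libraries (2 WT, 2 KO), 1 list per library, were used. Per the submitters' processing notes the tools were MACS2, BWA, Picard, SAMtools and deepTools and the builds GRCm38 and mm10 (a single assembly). Their versions and settings, and the treatment of multiply mapped reads, were not given in the sources used here. Each deposited list has 10 columns without a header. Fold enrichment, as deposited, is the ratio of a peak over the caller's background. Significance was deposited as −log10 p and −log10 q, with no −log10 q under 2. The authors' score column was not used. Folds and percentiles of different lists, which differ in length, are set side by side as descriptions and show no change between libraries. Lists held 56852 and 61489 (WT) and 43078 and 61773 (KO) peaks on the autosomes and X. Peak numbering had 1603 to 1900 gaps per list, so an absent peak can be a removed one. Read depth is unknown, and no counting interval was set.

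Peaks overlapping by 1 bp were merged. The nearest protein-coding RefSeq interval (GRCm38.p6) within 100 kb of the midpoint named the gene (85.0% of regions), with ties to the lower start. Coordinates are 1-based. Strand came from the promoter table, and exons were not used here. The region's strongest peak per library gave its percentile of fold enrichment. Groups came from the genotype labels. No test across libraries was run. Merging, assignment and classes were tested on simulated data and merging against bedtools. Alternatives were stricter peaks, equal list lengths, other overlap and gene rules, each replicate left out, a replicate block and other rankings. The 9 genes and the lists were chosen with earlier results of these data known. Named genes were the 9 members, up to 4 genes per list with genotype-specific regions (ties in list order), and the 3 genes nearest to the member with most regions. Cd247, marker genes given by name, pseudogenes and the genes of the promoter comparison were named in addition, after their values were seen. An item among the markers is not reported here. Same-numbered libraries did not deviate together over 26867 shared regions (Pearson's r of log2 fold deviations across regions, which are not independent, −0.0179). Python 3.11, pandas 2.3.3 and Biopython 1.88 were used.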

Additional observations from a re-analysis of the deposited data

How the results depend on the processing

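The number of WT-only regions at the 9 genes was 6 of 32, with the percent of all regions in brackets (8.80%). It was 3 of 15 with peaks of −log10 q of at least 10 (13.2%) and 1 of 7 among the 20000 strongest peaks of each list (8.96%). With member regions inside gene intervals alone it was 2 of 11 (8.80%, inside a gene or not). With lists cut to the length of the shortest it was 7 of 23 (9.61%). The remaining settings that kept all libraries gave 6 or 7 (8.55% to 13.5%). Leaving out a library loosens the class, because that list is no longer consulted: WT-only regions then numbered from 7 to 13, with 7 of 33 without KO-1 (10.4% of all regions), 13 of 29 without KO-2 (17.8%), 9 of 29 without WT-1 (24.2%) and 10 of 31 without WT-2 (20.9%). KO-only regions numbered from 0 to 4, and the 4 of 33 without KO-1 stand beside 22.3% of all regions. KO-only regions numbered 0 in the other settings, apart from 1 of 23, at Klrb1c, with lists cut to the length of the shortest (3.92% of all regions). The WT minus KO difference in regions with a peak, 11, was 3 at a −log10 q of at least 10 and 1.5 among the 20000 strongest peaks, and from 6 (without KO-1) to 16.5 (without KO-2) with a library left out. It was above 0 in every setting run. All settings reuse the same libraries, so they are not separate support. The same difference over all regions was not computed, so its sign is not read as a trait of these genes. The replicate block gave the same difference, 11, from pair values of 17 and 5, and no test was run on these 2 pairs. The 8 shared regions had a median WT minus KO difference in percentile of 2.90, with a range over the alternatives from −2.77 (lists cut to the shortest, 7 regions left) to 6.97, and no conclusion is drawn from it. The ranking among shared regions (2.53) was chosen after seeing the data. Depth is unknown, so for a peak missing from KO-1, the shortest list, closed chromatin and too little depth cannot be told apart.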
